A study of Mus musculus with 9 samples.

Results

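Genes that naive and primed mouse stem cells shared when grown with CHIR99021, and that set both apart from primed cells grown with FGF2 and activin, were taken from 9 expression arrays. A gene was a member when its log2 values on all 6 arrays of the CHIR99021 cultures lay on one side of all 3 values of the FGF2/activin culture, and when the means of both CHIR99021 groups lay within 1 log2 unit of each other. Of 19936 genes measured, 6083 (30.5%) met this rule, 3071 (15.4%) with the CHIR99021 cultures above and 3012 (15.1%) with them below. Among these, 533 (2.67% of all genes) differed by 2-fold or more, 132 (0.662%) above and 401 (2.01%) below. Since these values chose the members, the differences of members are given as a description, with no test.

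The first CHIR99021 group was embryonic stem cells (ESCs) of strain 129 in 2i, the naive state, with CHIR99021 at 3 µM and the MEK inhibitor PD0325901 at 1 µM. The second was epiblast stem cells (EpiSCs) of strain CD1, the primed state, with CHIR99021 at 3 µM and the tankyrase inhibitor XAV939 at 2 µM. The third group was EpiSCs of strain CD1 in FGF2 and activin, each at 10 ng/ml. There were 3 arrays per group, and the medium of all groups held 10% serum. The labels list the doses for all samples at once, so the pairing of doses with groups follows the group names and the common meaning of 2i. All groups carry the same tissue label, mouse embryonic stem cell, EpiSCs included. CHIR99021 was present where FGF2 and activin were absent, so the presence of one and the absence of the others cannot be told apart here. PD0325901 was in the ESC medium alone and XAV939 in the CHIR/XAV medium alone. The labels do not say whether the 3 arrays of a group were independent cultures, and p-values here may therefore rest on technical spread only.

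CHIR99021 inhibits GSK3, the kinase that marks beta-catenin for destruction, and beta-catenin then frees target genes from repression by TCF factors. GSK3 also acts on many other proteins, among them transcription factors of metabolism and of the stress response. XAV939 stabilises Axin and holds beta-catenin in the cytoplasm. Activin signals through SMAD2 and SMAD3, and FGF2 through ERK, and both are the usual support of primed cells.

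The markers were as the group names state, naive in ESCs and primed in both EpiSC groups. The naive genes Esrrb and Nr5a2 were at 10.08 and 9.54 in ESCs and between 4.50 and 4.93 in both EpiSC groups, while Fgf5, a primed epiblast marker, was at 5.25 in ESCs against 8.86 in CHIR/XAV and 8.88 in FGF2/activin EpiSCs. Array medians ran from 5.57 to 5.65. Cell sex markers differed between the groups: the Y-linked Eif2s3y was at 9.15 in ESCs, 4.41 in CHIR/XAV EpiSCs and 9.61 in FGF2/activin EpiSCs, and Xist, which silences one X chromosome in female cells, was at 9.12 in CHIR/XAV EpiSCs alone against 4.59 and 4.38. Both EpiSC groups therefore differ in these markers as well as in medium, and the part this plays in the members was not tested. Hprt was at 4.75 in ESCs against 10.39 and 10.38 in the EpiSC groups. As these are bulk samples, fewer cells of a type and less RNA per cell cannot be told apart.

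The members above and below the FGF2/activin culture were alike in number but not in size or brightness. Of those above, 85.1% differed by under 1.5-fold, against 58.5% of those below, and the median size of the difference was 0.31 against 0.52 log2 units. Among the dimmest 40% of all genes by mean level, a cut at 5.28, were 50.5% of the members above and 8.47% of those below. Differences of 4-fold or more numbered 28 above and 49 below, and of 8-fold or more 9 above and 5 below. The range reached 6.27 above and 3.83 below. Between the nearest arrays of the CHIR99021 and FGF2/activin cultures the gap was at least 0.5 log2 units for 187 members above and 570 below. With limma, a linear model with moderated variances, 11282 genes (56.6%) were called in the contrast of the mean of both CHIR99021 groups against FGF2/activin at an adjusted p under 0.05, 6117 (30.7%) higher and 5165 (25.9%) lower. At 2-fold or more 372 (1.87%) were called higher and 777 (3.9%) lower. Without the dimmest 40% of genes 40.2% of the calls were higher, against 54.2% of all calls and 59.3% after centring each array on its median. The median difference over all genes was 0.07.

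**Figure D1:**
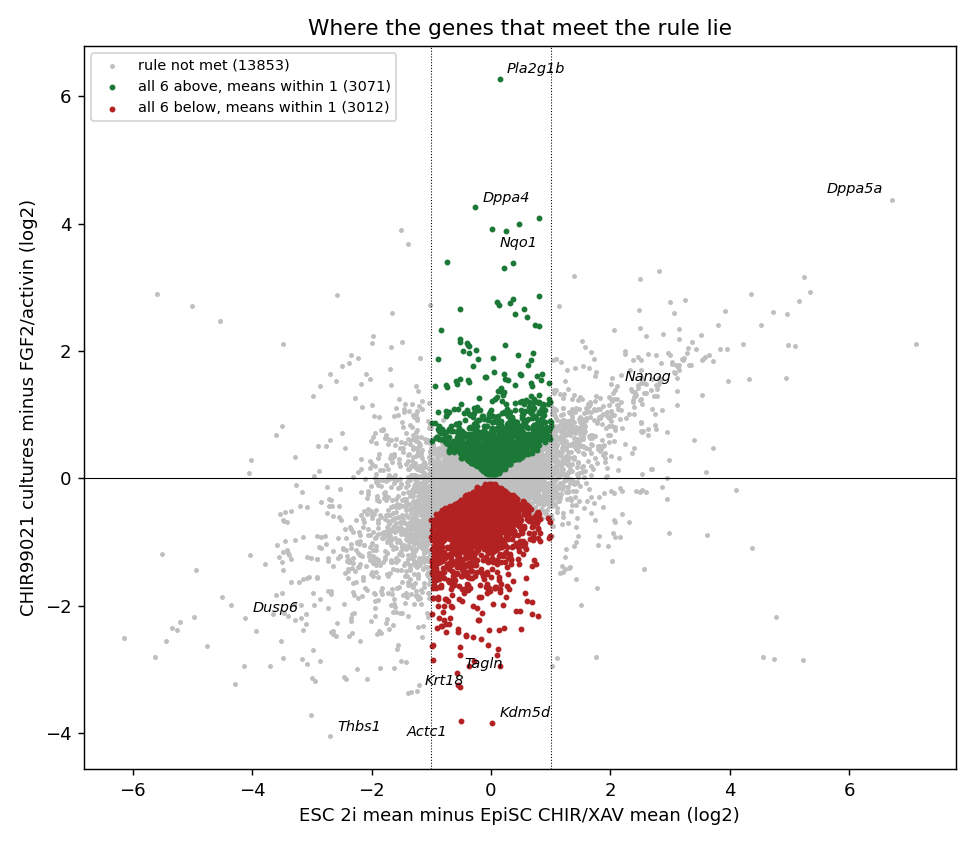
Each point is 1 of 19936 genes, with the distance between both CHIR99021 groups on the horizontal axis and the difference of their mean from the FGF2/activin culture on the vertical axis, both in log2 units; dotted lines mark the limit of 1. Members fill the centre, 3071 above and 3012 below, with Pla2g1b highest at 6.27, while Dppa5a, Nanog, Dusp6 and Thbs1 lie outside the limit.

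The limit on the distance left out 580 genes whose 6 values also lay on one side. Separated at any distance were 3280 genes above (16.5%) and 3383 below (17.0%). Of the 209 left out above, ESCs were the group farther from FGF2/activin in 161, and of the 371 left out below in 346. Just inside the limit lay Mpzl2, Sgce and Notch3, with distances of 0.99, and just outside it Gng12, Cavin1 and Farp1, with distances of 1.00; all 6 were lower in the CHIR99021 cultures. Among the members of 2-fold or more, the CHIR/XAV EpiSCs were the group nearer to FGF2/activin in 88 of the 132 above and 310 of the 401 below. Both CHIR99021 groups were each 2-fold or more from FGF2/activin in 73 and 250 of them.

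Among members above, the difference of Pla2g1b, which encodes a secreted phospholipase A2, exceeded all others. It was at 11.98, 12.03 and 12.16 on the ESC arrays, at 11.90, 11.95 and 11.88 on the CHIR/XAV arrays, and at 5.71, 5.65 and 5.78 on the FGF2/activin arrays. Both CHIR99021 groups lay near 12 and far above the FGF2/activin arrays, and the difference of 6.27 (SE 0.06) corresponds to 77.2-fold. The linked genes Dppa2 and Dppa4, on chromosome 16, encode partner chromatin proteins of pluripotent cells. Dppa4 was at 8.99, 8.85 and 9.08 in ESCs, 9.18, 9.29 and 9.23 in CHIR/XAV and 4.94, 4.77 and 4.84 in FGF2/activin, a difference of 4.25 (SE 0.07). Dppa2 was at 11.31 ± 0.03 (SD, n = 3) in ESCs, 10.94 ± 0.08 in CHIR/XAV and 7.75 ± 0.09 in FGF2/activin. The second probe set of each gene showed the same direction, with differences of 3.34 for Dppa4 and 4.28 for Dppa2.

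The other members named for size above were Lipo3, a lipase family gene (4.08), Trim25, a ubiquitin ligase of RIG-I signalling (15.9-fold), Nqo1, a quinone reductase (3.92), Sycp3, a protein of the meiotic chromosome axis (3.88), Gstp1, a glutathione transferase (3.39), Mael, of the piRNA pathway (3.31), Slc50a1, a sugar transporter (2.86), Gpt2, a mitochondrial alanine aminotransferase (2.82), and Eng, a co-receptor of the TGF-beta family (2.76). Trim25 was at 8.82, 8.69 and 8.69 in ESCs, 8.16, 8.36 and 8.28 in CHIR/XAV and 4.48, 4.41 and 4.62 in FGF2/activin. Ddx58, which encodes RIG-I, was at 8.59 in ESCs, 9.53 in CHIR/XAV and 7.60 in FGF2/activin. It was chosen after its values were seen, as were all genes named below that are neither among the largest differences nor in the lists and panel named. Of the 132 members above at 2-fold or more, 46 had an FGF2/activin mean below the cut of 5.28, so their differences may be bounded by background.

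**Figure D2:**
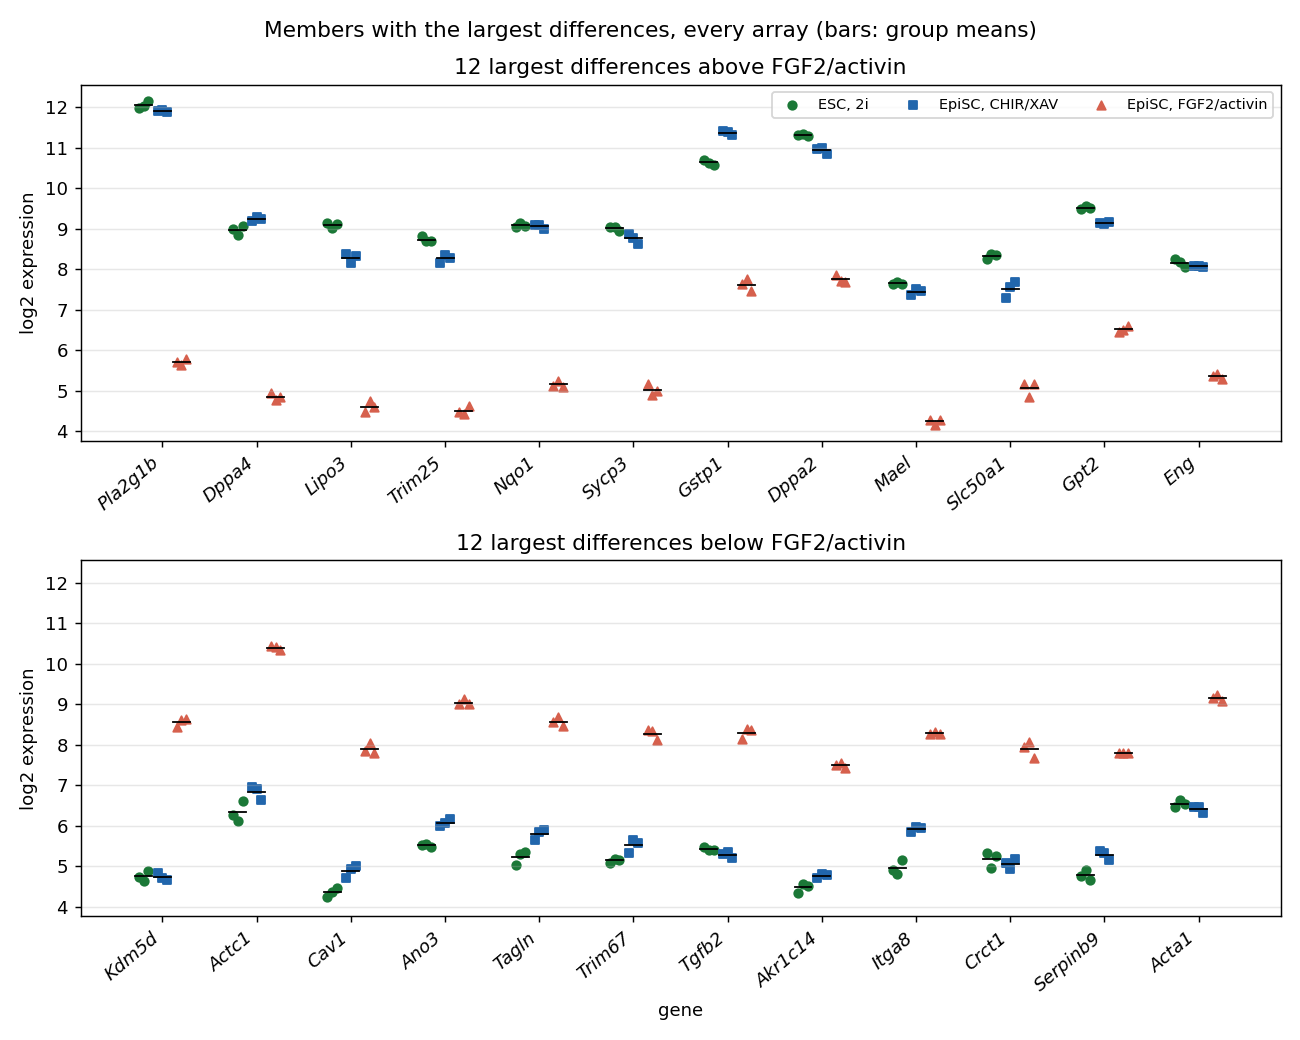
Log2 expression on each array for the 12 members with the largest differences above (top) and below (bottom); points are arrays, coloured by group, and bars are group means. In every gene shown the ESC and CHIR/XAV points lie on the same side of the FGF2/activin points, at 12.06 and 11.91 against 5.71 for Pla2g1b. The Y-linked Kdm5d is at 4.75 and 4.73 against 8.57, and the EpiSC groups also differ in sex markers.

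Meiosis and germ line genes were among the large differences above. Sycp3 was at 9.06, 9.05 and 8.95 in ESCs, 8.87, 8.78 and 8.64 in CHIR/XAV and 5.16, 4.90 and 4.98 in FGF2/activin. Mael was at 7.66 ± 0.03 (SD, n = 3) in ESCs, 7.44 ± 0.08 in CHIR/XAV and 4.24 ± 0.07 in FGF2/activin. Of the germline list 11 of 13 measured genes were called higher and 1 lower by limma, against 30.7% and 25.9% of all genes, and 4 met the rule, all above, against 15.4% of all genes. Those 4 were Sycp3, Mael, the piRNA pathway gene Tdrd1 (0.70) and the germ cell RNA-binding gene Nanos3 (0.57). Of the genes called higher that are not members, Ddx4, Dazl, Dmrt1 and Hormad1 had the largest differences, and all 4 were high in ESCs and near the FGF2/activin level or less than 1 log2 unit above it in CHIR/XAV: Ddx4, a germ cell helicase gene, was at 7.61 in ESCs but at 5.08 in CHIR/XAV and 4.76 in FGF2/activin, and Dazl at 7.68, 5.17 and 4.93. Outside the list, members above included the meiotic cohesin genes Stag3 (2.54) and Rec8 (1.36), the meiotic recombinase Dmc1 (2.19), M1ap (2.73), Mei4 (1.30), Tex15 (1.10) and Ccnb1ip1 (1.54). Stag3 was at 8.29, 8.32 and 8.26 in ESCs, 7.58, 7.74 and 7.74 in CHIR/XAV and 5.52, 5.40 and 5.43 in FGF2/activin, with no overlap. Dmc1 was higher in CHIR/XAV, at 7.35, 7.40 and 7.58, than in ESCs, at 6.94, 6.89 and 6.97, and lay at 4.89, 4.94 and 5.18 in FGF2/activin.

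Genes of DNA and histone methylation held members in both directions. Dnmt3l, the cofactor of the de novo DNA methyltransferases, was at 7.68, 7.86 and 7.79 in ESCs, a mean of 6.97 ± 0.08 (SD, n = 3) in CHIR/XAV and 5.08, 5.11 and 4.77 in FGF2/activin, a difference of 2.39. Of the 8 DNA methylation genes measured 6 were called higher and 2 lower, against 30.7% and 25.9% of all genes. The rule was met above by 4 and below by 2, against 15.4% and 15.1% of all genes. Tet1, a 5-methylcytosine oxidase gene, was above by 0.69, and Uhrf1 and Dnmt1, of maintenance methylation, by 0.23 and 0.15. Tet3 was below by 1.32 and Dnmt3a by 0.35. Of 13 Polycomb genes 9 were called higher and 2 lower, against 30.7% and 25.9% of all genes. The rule was met above by 5, against 15.4% of all genes, namely Ezh1 (0.83), Cbx7 (0.62), Pcgf6 (0.58), Cbx2 (0.43) and Ezh2 (0.17). Rnf2 met it below (-0.45), against 15.1% of all genes. After median centring or quantile normalization 0 Polycomb genes met it below.

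The serine synthesis and ATF4-type list, genes of serine, one-carbon and amino acid supply that the stress factor ATF4 is known to drive, had 14 of 15 measured genes called higher and none lower. Of these, 11 met the rule above and none below, against 15.4% and 15.1% of all genes. Over all genes 30.7% were called higher and 25.9% lower. The median difference over the list was 0.85. Chac1, which breaks down glutathione, was at 8.27, 8.61 and 8.19 in ESCs, 7.95, 7.92 and 8.23 in CHIR/XAV and 5.46, 5.26 and 5.58 in FGF2/activin, a difference of 2.76. Mthfd2, a mitochondrial folate enzyme, was at 9.60 ± 0.01 (SD, n = 3) in ESCs, 9.71 ± 0.08 in CHIR/XAV and 8.06 ± 0.12 in FGF2/activin. Trib3 (1.25), Shmt2 (1.07), Psph (0.98), Slc7a5 (0.97), Asns (0.85), Psat1 (0.82), Atf4 itself (0.58), Atf5 (0.58) and Slc3a2 (0.55) were the other members. The cystine carrier gene Slc7a11 also lay above on all 6 arrays but its groups were too far apart for the rule, at 5.73 in ESCs, 7.70 in CHIR/XAV and 4.49 in FGF2/activin. Phgdh, the first enzyme of serine synthesis, was the gene not called, at 7.92, 7.42 and 7.49.

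The NRF2-type antioxidant list, targets of the transcription factor NRF2, had 10 of 11 measured genes called higher and 1 lower. Over all genes 30.7% were called higher and 25.9% lower. The median difference over the list was 0.89. Nqo1 was at 9.04, 9.14 and 9.06 in ESCs, a mean of 9.07 ± 0.06 (SD, n = 3) in CHIR/XAV and 5.13, 5.24 and 5.10 in FGF2/activin. The ranges of both CHIR99021 groups overlapped, and the FGF2/activin arrays lay far below. Gsta4, a glutathione transferase, differed by 1.61, Srxn1, which repairs peroxiredoxins, by 1.17, and Gclm and Gclc, the subunits of the enzyme that makes the glutathione precursor, by 1.12 and 0.48. With Prdx1 (0.23) these were the 6 members, all above, against 15.4% of all genes. Hmox1, heme oxygenase, was the gene called lower by limma (-0.16, adjusted p = 0.0371). Beside the list, the glutathione transferase Gstp1 was at 10.70, 10.64 and 10.59 in ESCs, 11.42, 11.40 and 11.31 in CHIR/XAV and 7.64, 7.77 and 7.45 in FGF2/activin. Cbr3, a carbonyl reductase, was above by 2.14 and the metal-binding Mt1 by 1.63.

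Of 12 measured genes of cholesterol synthesis and uptake 11 were called higher and 1 lower, against 30.7% and 25.9% of all genes. The rule was met above by 10 and below by none, against 15.4% and 15.1% of all genes. The median was 0.56, and no member reached 2-fold. Lss, lanosterol synthase, was at 9.39 ± 0.14 (SD, n = 3) in ESCs, 8.61 ± 0.08 in CHIR/XAV and 8.14 ± 0.02 in FGF2/activin. Fdft1, which makes squalene, differed by 0.74, as did Hmgcs1, and Srebf2, the master transcription factor of the pathway, by 0.54. Sc5d, a late enzyme, was the one called lower (-0.31). Insig1, which holds back SREBP, lay at 10.62 in ESCs but at 9.04 and 9.01 in the EpiSC groups.

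**Figure D3:**
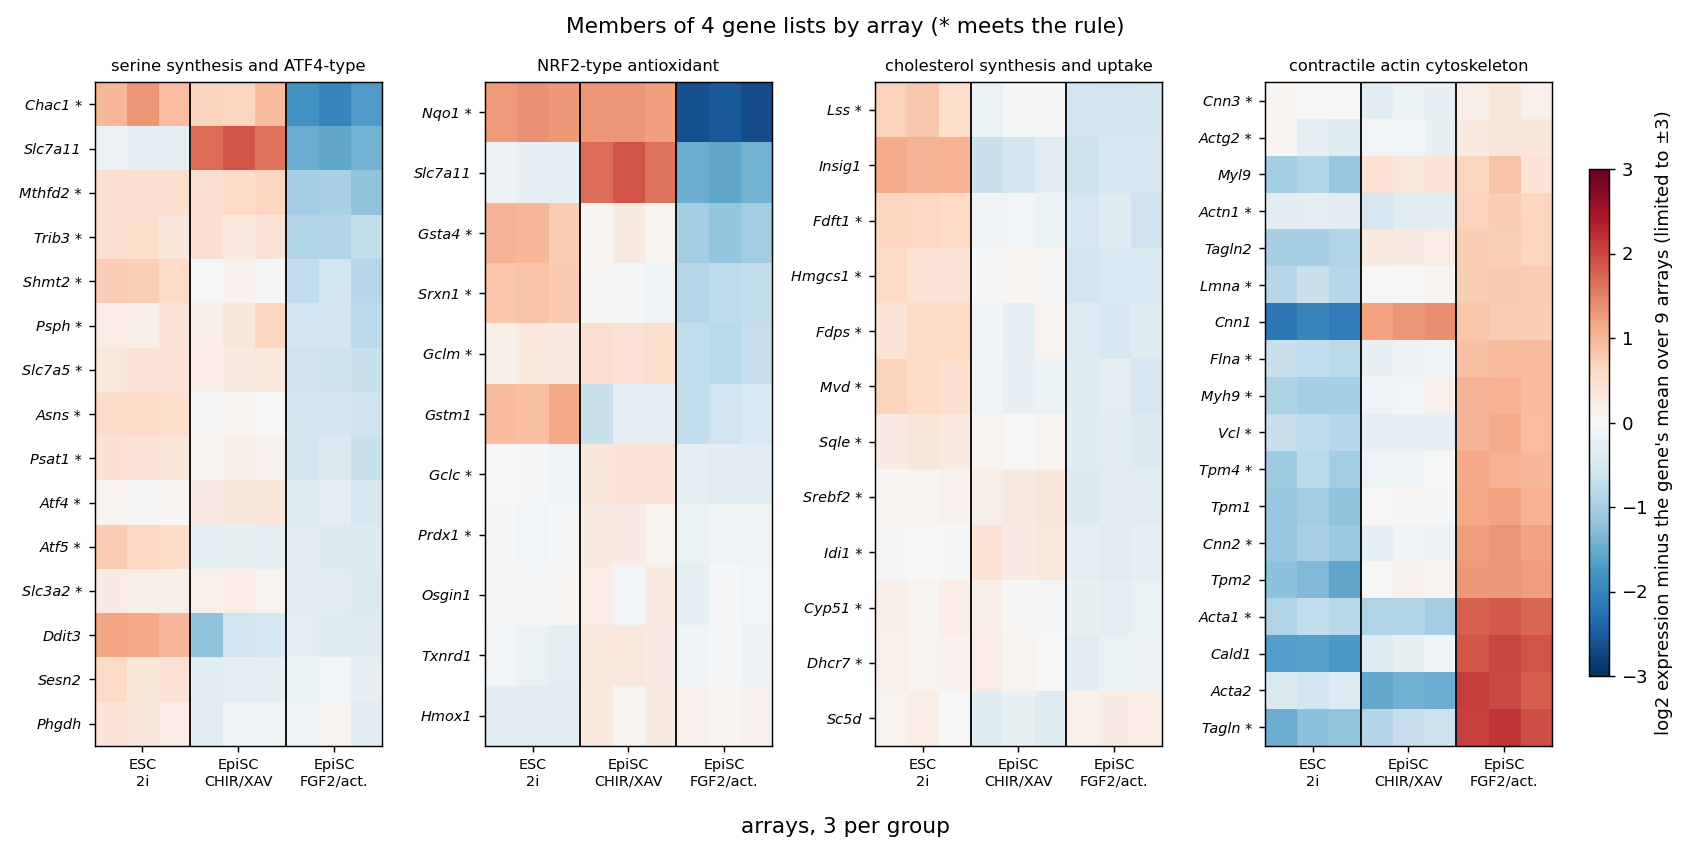
Log2 expression of every measured gene of 4 lists on each array, minus the gene's mean over the 9 arrays; red is above and blue below that mean, and an asterisk marks genes that meet the rule. Asterisks stand at 11 of 15 serine and ATF4-type, 6 of 11 NRF2-type and 10 of 12 cholesterol genes, where the FGF2/activin columns are lowest, and at 11 of 18 contractile genes, where they are highest.

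Genes of the contractile actin cytoskeleton lay below in the CHIR99021 cultures. All 18 measured genes of that list were called lower by limma, against 25.9% of all genes, with a median difference of -1.52. Of these 11 met the rule below, against 15.1% of all genes, 9 of them at 2-fold or more, and none met it above. Actc1, cardiac alpha-actin, which the list does not hold, was at 6.27, 6.12 and 6.62 in ESCs, 6.97, 6.92 and 6.63 in CHIR/XAV and 10.43, 10.41 and 10.35 in FGF2/activin, a difference of -3.81 (SE 0.10). Tagln, the actin-bundling protein transgelin, was at 5.04, 5.29 and 5.34 in ESCs, 5.66, 5.85 and 5.88 in CHIR/XAV and 8.57, 8.68 and 8.46 in FGF2/activin. Acta1, skeletal alpha-actin, was at 6.46, 6.63 and 6.53 in ESCs, 6.47, 6.47 and 6.32 in CHIR/XAV and 9.15, 9.22 and 9.09 in FGF2/activin. In these 3 muscle-type genes the CHIR99021 cultures lay at least 2 log2 units below every FGF2/activin array.

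Cnn2 and Vcl had smaller differences, with CHIR/XAV between the other groups. Cnn2, calponin 2, was at 9.36 in ESCs, 10.25 in CHIR/XAV and 11.70 in FGF2/activin, and Vcl, vinculin of focal adhesions, at 9.32, 9.82 and 11.10. Tpm4 (-1.58), Myh9 (-1.51), Flna (-1.39), Lmna (-1.14), Actn1 (-1.04), Actg2 (-0.49) and Cnn3 (-0.36) made up the 11 with Tagln and Acta1. The second probe set of Myh9 differed by -0.42. Acta2, smooth muscle actin, missed the rule by distance only, at 6.98 in ESCs, 5.96 in CHIR/XAV and 9.41 in FGF2/activin. Beyond the list, Tgfb1i1 (-2.11), Pdlim7 (-1.61), Csrp1 (-1.60) and Fhl2 (-1.23), LIM-domain partners of actin, and Myl3, a myosin light chain (-1.55), were members.

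Many muscle and cytoskeleton genes carry a CArG box, the site bound by serum response factor, so the promoters of 4 members below that hold one are shown, from RefSeq on GRCm38.p6, from 250 bases before to 50 after the start site, with the CArG box in capitals. Their windows are chr2:114052826-114053125 (minus strand) for Actc1, chr8:123894726-123895025 (minus) for Acta1, chr14:20929148-20929447 (plus) for Vcl and chr10:79988350-79988649 (plus) for Cnn2.
Actc1: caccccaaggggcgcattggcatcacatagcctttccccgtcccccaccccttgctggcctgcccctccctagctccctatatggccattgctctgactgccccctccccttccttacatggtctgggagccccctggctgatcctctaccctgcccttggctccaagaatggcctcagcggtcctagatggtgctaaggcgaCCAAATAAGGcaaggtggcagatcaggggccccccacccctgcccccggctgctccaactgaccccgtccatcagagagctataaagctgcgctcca
Acta1: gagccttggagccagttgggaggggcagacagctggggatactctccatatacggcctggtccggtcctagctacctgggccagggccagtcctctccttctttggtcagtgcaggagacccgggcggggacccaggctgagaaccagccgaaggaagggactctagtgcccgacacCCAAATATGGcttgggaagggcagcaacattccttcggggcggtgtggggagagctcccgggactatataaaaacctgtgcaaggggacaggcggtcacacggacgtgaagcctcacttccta
Vcl: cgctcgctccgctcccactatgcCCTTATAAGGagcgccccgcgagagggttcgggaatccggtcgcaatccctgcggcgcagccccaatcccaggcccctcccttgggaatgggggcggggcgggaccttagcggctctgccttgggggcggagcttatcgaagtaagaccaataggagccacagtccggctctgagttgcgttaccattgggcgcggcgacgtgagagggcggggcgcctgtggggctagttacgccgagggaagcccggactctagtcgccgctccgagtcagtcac
Cnn2: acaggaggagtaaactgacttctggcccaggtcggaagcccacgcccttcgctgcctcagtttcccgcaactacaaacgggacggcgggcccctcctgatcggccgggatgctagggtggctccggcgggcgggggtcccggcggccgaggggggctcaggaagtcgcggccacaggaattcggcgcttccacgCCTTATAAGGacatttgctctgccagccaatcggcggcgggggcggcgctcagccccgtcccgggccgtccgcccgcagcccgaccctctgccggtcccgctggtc

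Each of these windows held 1 match, first base at -47, -73, -227 and -56 from the start site in that order. The windows of Flna, Tpm4, Myh9 and Actn1, members of the contractile list as well, held none. The motif was chosen after the values were seen, and a match is a description of letters and not of binding. Promoter windows were found for 106 of the 132 members above at 2-fold or more (129 windows) and for 323 of the 401 below (432 windows). On both strands, the CArG box was in 14 of the 432 windows of members below (3.24%), in 3 of the 129 windows of members above (2.33%) and in 270 of all 19177 windows (1.41%). The 13 genes below that held it were the 4 shown and Fhl2, Myl3, Igf2, Myadm, Myo1e, Rsu1, Tmem63a, Lurap1l and Cited1. The other motifs were also looked for on both strands. CATTCC, as bound by TEAD factors, was in 14.8% of windows below, 10.1% above and 13.2% of all. TTCAAAG or ATCAAAG, as bound by TCF factors, was in 4.86% below, 6.20% above and 7.36% of all. TGANTCA, the AP-1 site, was in 7.87%, 6.20% and 6.90%. TGACNNNGC, the core of the antioxidant response element, was in 16.0%, 16.3% and 13.2%, with 1 match each in the windows of Gclm and Srxn1 and none in those of Nqo1, Gstp1 and Cbr3. A match to it can overlap one to TGANTCA. The last motif too was chosen after the values were seen.

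Tgfb2, a TGF-beta ligand, was at 5.47, 5.41 and 5.41 in ESCs, 5.31, 5.34 and 5.21 in CHIR/XAV and 8.15, 8.38 and 8.38 in FGF2/activin, a difference of -2.94 (SE 0.07). Pmepa1, a TGF-beta target (-1.80), Ltbp1, which binds latent TGF-beta (-1.76), and Serpinh1, the collagen chaperone (-1.31), were members as well. Of 17 matrix and integrin genes 12 were called lower and 2 higher, against 25.9% and 30.7% of all genes. The rule was met below by 7 and above by 1, against 15.1% and 15.4% of all genes. Itga5, the fibronectin receptor subunit, was at 7.51 ± 0.05 (SD, n = 3) in ESCs, 7.02 ± 0.06 in CHIR/XAV and 9.34 ± 0.08 in FGF2/activin, and Itga8, another alpha integrin, at 4.96, 5.92 and 8.29. Col4a1 (-0.80) and Col4a2 (-0.68), the neighbouring basement membrane collagen genes, Itgav (-0.98), Itga6 (-0.69) and Lamc1 (-0.54) lay below on all 6 arrays. Col1a1 also met the rule, by -0.12, and Fbn2 met it above (0.42).

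Cav1, the main protein of caveolae, was at 4.24, 4.37 and 4.46 in ESCs, 4.70, 4.92 and 5.01 in CHIR/XAV and 7.85, 8.04 and 7.79 in FGF2/activin, and its neighbour Cav2 was below by 1.11. Cav1 is on the list of YAP/TEAD-type targets, where 12 of 13 were called lower and 1 higher, against 25.9% and 30.7% of all genes. But 4 met the rule, all below, against 15.1% of all genes: Cav1 (-3.28), Amotl2 (-0.95), Ankrd1 (-0.83) and Ajuba (-0.70). Ccn1 and Thbs1 were graded rather than shared, at 5.48 and 5.96 in ESCs, 9.17 and 8.66 in CHIR/XAV and 10.27 and 11.35 in FGF2/activin. Ccn2, a close relative of Ccn1, went the other way, at 7.18 in ESCs, 9.17 in CHIR/XAV and 6.05 in FGF2/activin.

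The other members named for size below were Kdm5d, a Y-linked histone demethylase (-3.83), Ano3, a membrane protein of the anoctamin family (-3.25), Trim67, a TRIM family gene (-2.95), Akr1c14, a hydroxysteroid dehydrogenase (-2.87), Serpinb9, an inhibitor of granzyme B (-2.77), and Crct1 (-2.77). Kdm5d was at 4.75, 4.64 and 4.87 in ESCs, 4.83, 4.70 and 4.66 in CHIR/XAV and 8.45, 8.62 and 8.65 in FGF2/activin. It was thus low in ESCs, where the Y-linked Eif2s3y and Uty were at 9.15 and 8.84, so in ESCs it did not follow the other Y-linked genes. In CHIR/XAV EpiSCs Kdm5d was low where Eif2s3y was low too and Xist was high. There its difference from FGF2/activin EpiSCs goes with these sex markers as well as with the medium. The part of cell sex in it was not tested. Serpinb9 was at 4.75, 4.90 and 4.67 in ESCs, 5.37, 5.33 and 5.16 in CHIR/XAV and 7.79, 7.80 and 7.80 in FGF2/activin. Of the 401 members below at 2-fold or more, 59 had both CHIR99021 means under 5.28.

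The pathways that the media address were represented unevenly. In the Nodal/activin list of 16 measured genes 10 were called lower and 4 higher, against 25.9% and 30.7% of all genes. The rule was met by 7, all below, against 15.1% of all genes. After quantile normalization 4 met it. Among ligands, Nodal was at 8.87, 8.89 and 8.86 in ESCs, 8.80, 8.81 and 8.90 in CHIR/XAV and 10.16, 10.23 and 10.12 in FGF2/activin, with overlapping ranges in the CHIR99021 groups and a 2.49-fold higher level in FGF2/activin. Furin, which cleaves the Nodal precursor (-0.87), the receptor genes Acvr1b (-0.71) and Acvr2b (-0.34), the transducers Smad3 (-0.70) and Smad4 (-0.13) and the repressor Skil (-0.63) were the other members. The feedback inhibitors Lefty1 and Lefty2 did not follow Nodal: Lefty1 was at 8.99 in ESCs, 4.62 in CHIR/XAV and 7.89 in FGF2/activin, and Lefty2 at 8.54, 4.82 and 6.20. The co-receptor gene Tdgf1 was graded, at 9.98, 11.33 and 12.48.

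Of 17 FGF/ERK targets and feedback genes 14 were called lower and 1 higher, against 25.9% and 30.7% of all genes, with a median of -1.16. But 3 met the rule below and 1 above, against 15.1% and 15.4% of all genes. The mean level of the list per array was 6.25 to 6.31 in ESCs, 7.79 to 7.82 in CHIR/XAV and 8.16 to 8.22 in FGF2/activin. Dusp6 separated ESCs, whose medium holds the MEK inhibitor, from both EpiSC groups. This ERK phosphatase gene was at 5.99 in ESCs, 10.11 in CHIR/XAV and 10.24 in FGF2/activin. The members were Fosl1 (-1.06), Spred1 (-0.88) and Fos (-0.68) below and Etv5 (0.57) above. When probe sets were averaged within genes, 0 of this list met the rule above and 4 below, and limma called 0 higher and 15 lower. The place of Etv5 above therefore depends on which probe set was kept. Among BMP pathway genes 4 of 13 met the rule, all below, against 15.1% of all genes. Of these, Bmp7 was at 7.36 in ESCs, 7.46 in CHIR/XAV and 8.49 in FGF2/activin. In the LIF/STAT3 list of 8 genes 1 met the rule above and 1 below, near the 15.4% and 15.1% of all genes. By limma 2 were called higher and 2 lower, against 30.7% and 25.9% of all genes. The kinase gene Jak2 was the member below, at 7.37, 7.22 and 9.08, and Pim1, a STAT3 target, the member above, at 8.67, 9.05 and 7.84.

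Wnt/beta-catenin targets were divided. Of 18 measured, 6 were called higher and 9 lower, against 30.7% and 25.9% of all genes. The rule was met above by 2 and below by 4, against 15.4% and 15.1% of all genes. The median difference was -0.09. Axin2, a feedback inhibitor induced by beta-catenin, was at 8.33, 8.25 and 8.53 in ESCs, 7.32, 7.36 and 7.40 in CHIR/XAV and a mean of 7.56 ± 0.08 (SD, n = 3) in FGF2/activin. Its mean over both CHIR99021 groups was higher by 0.30 (SE 0.07; limma, adjusted p = 0.002), yet the CHIR/XAV arrays lay below the FGF2/activin arrays. Lef1 showed the opposite order, at 6.97 in ESCs, 7.98 in CHIR/XAV and 7.23 in FGF2/activin (difference 0.25, SE 0.06; limma, adjusted p = 0.00435). The 6 members were Nkd1 (0.35) and Apcdd1 (0.11) above and Nrcam (-1.59), Sp5 (-0.61), Rnf43 (-0.54) and Ccnd1 (-0.31) below. Notum, a secreted Wnt inhibitor, was at 7.80 in ESCs and at 5.24 and 5.18 in the EpiSC groups. Of the 11 destruction complex genes 3 met the rule below and none above, against 15.1% and 15.4% of all genes. Those 3 were Tnks2, a tankyrase gene (-0.39), Gsk3b, a GSK3 gene (-0.28), and Ctnnb1, beta-catenin (-0.14). Tcf7l1, the TCF repressor that beta-catenin relieves, met the rule above (0.33), as did Tle1 (0.57) and Pygo1 (0.54). Of the 9 genes of TCF/LEF factors and partners 3 were called higher and 5 lower, against 30.7% and 25.9% of all genes. Their median difference was -0.15. The rule was met above by 3 and below by 1, against 15.4% and 15.1% of all genes. After quantile normalization 2 met it above and 0 below. Wnt3, the ligand of the primitive streak, was below at 5.46 ± 0.11 (SD, n = 3) in ESCs, 6.43 ± 0.06 in CHIR/XAV and 7.82 ± 0.24 in FGF2/activin.

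None of the 16 naive pluripotency genes met the rule above and 1, Klf5, met it below, against 15.4% and 15.1% of all genes. These counts depended on scaling: 0 above and 0 below after median centring, and 1 above and 0 below after quantile normalization. By limma 15 were called higher and 1 lower, against 30.7% and 25.9% of all genes. The mean level of the list per array was 9.34 to 9.40 in ESCs, 5.83 to 5.86 in CHIR/XAV and 5.80 to 5.86 in FGF2/activin. Nanog was at 12.37 in ESCs, 10.25 in CHIR/XAV and 9.86 in FGF2/activin (difference 1.45, SE 0.07; limma, adjusted p = 2.61e-10), and all 6 values lay above, but the groups were too far apart. Sox2 was at 11.80, 11.03 and 11.32 (difference 0.09, SE 0.07; limma, adjusted p = 0.262). Pou5f1 (Oct4) met the rule below with a small difference, at 11.33, 11.59 and 11.68. Its highest CHIR/XAV array was at 11.61 and its lowest FGF2/activin array at 11.62. Of the 8 core genes Dppa4 was the member above and Sall4 the other one below. These were 1 above and 2 below, against 15.4% and 15.1% of all genes. After quantile normalization 1 of the list met the rule above and 1 below. Of 16 primed epiblast genes 2 met the rule above and 1 below, against 15.4% and 15.1% of all genes. Among them were Sfrp2, a secreted Wnt modulator (1.63), and the RNA-binding gene Lin28b (-1.03).

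Epithelial genes had mean levels per array of 6.85 to 6.93 in ESCs, 8.18 to 8.25 in CHIR/XAV and 8.20 to 8.24 in FGF2/activin, and keratin and desmosome genes of 6.44 to 6.51, 7.17 to 7.25 and 8.22 to 8.24. Krt8 was at 8.09 in ESCs, 9.72 in CHIR/XAV and 11.88 in FGF2/activin, and Krt18 at 7.45, 8.68 and 11.40, both past the limit on distance. Of 15 keratin and desmosome genes 11 were called lower and 1 higher, against 25.9% and 30.7% of all genes. The rule was met below by 3 and above by 1, against 15.1% and 15.4% of all genes. Cdh1, E-cadherin, met it below, at 10.30, 10.88 and 11.32. Vim, vimentin, of the mesenchymal list, was below as well, at 10.42, 10.71 and 11.84, as were Cdh2 (-0.56), Snai2 and Twist2 (-0.41). Of the 10 mesenchymal genes 4 met the rule below and 1 above, against 15.1% and 15.4% of all genes. By limma 6 were called lower and 2 higher, against 25.9% and 30.7%.

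Markers of other cell types moved with these groups in part. Of 11 trophoblast markers 7 were called lower and 3 higher, against 25.9% and 30.7% of all genes, and 2 met the rule below, near the 15.1% of all genes, Gata3 (-0.90) and Hand1 (-0.86). The mean level of the list per array ran from 6.13 to 6.19 in ESCs, 6.24 to 6.33 in CHIR/XAV and 7.13 to 7.16 in FGF2/activin (the list holds Krt7, Krt8 and Krt18), while Cdx2 was at 5.14 and Elf5 at 4.53 in FGF2/activin. Of 14 primitive streak and mesoderm markers 5 were called lower and 2 higher, against 25.9% and 30.7% of all genes. Their means were 5.20 to 5.24, 5.37 to 5.45 and 5.58 to 5.63. Fibroblast and feeder markers, 8 of 12 of them among the dimmest 40%, had means of 5.03 to 5.07, 5.16 to 5.24 and 5.10 to 5.13, and Dcn (4.47), Lum (4.32) and Col3a1 (5.19) were dim in FGF2/activin as in the other groups. Of these 12, 4 met the rule below and 2 above, against 15.1% and 15.4% of all genes. The part of trophoblast and mesoderm markers in the contractile, matrix and keratin differences was not tested.

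Of 11 p53 targets 8 were called lower and 2 higher, against 25.9% and 30.7% of all genes, and 5 met the rule below and 1 above, against 15.1% and 15.4%. Members were Phlda3 (-1.26), Mdm2 (-0.96), Trp53inp1 (-0.67), Ei24 (-0.46) and Ccng1 (-0.44) below and Sesn1 (0.90) above. Mdm2, the p53 antagonist, was at 10.08 in ESCs, 10.23 in CHIR/XAV and 11.12 in FGF2/activin. Of 13 glycolysis genes 10 were called lower, against 25.9% of all genes, and none higher, and 4 met the rule below, against 15.1%, led by Hk2, hexokinase 2, at 8.45, 8.87 and 9.57; Ldha and Pfkl separated ESCs from both EpiSC groups instead. Of 14 imprinted genes Mest met the rule above, by 1.48, and 3 met it below, against 15.4% and 15.1% of all genes. Of those below, Igf2 was at 7.71, 7.63 and 9.39 and Peg10 at 11.34, 12.05 and 13.07. Of 13 G1 regulators 2 met the rule above and 2 below, near the 15.4% and 15.1% of all genes. Among them the cyclin gene Ccne1 was above, at 10.99, 10.72 and 10.10, and Ccne2 below, at 7.92, 8.31 and 8.61.

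**Figure D4:**
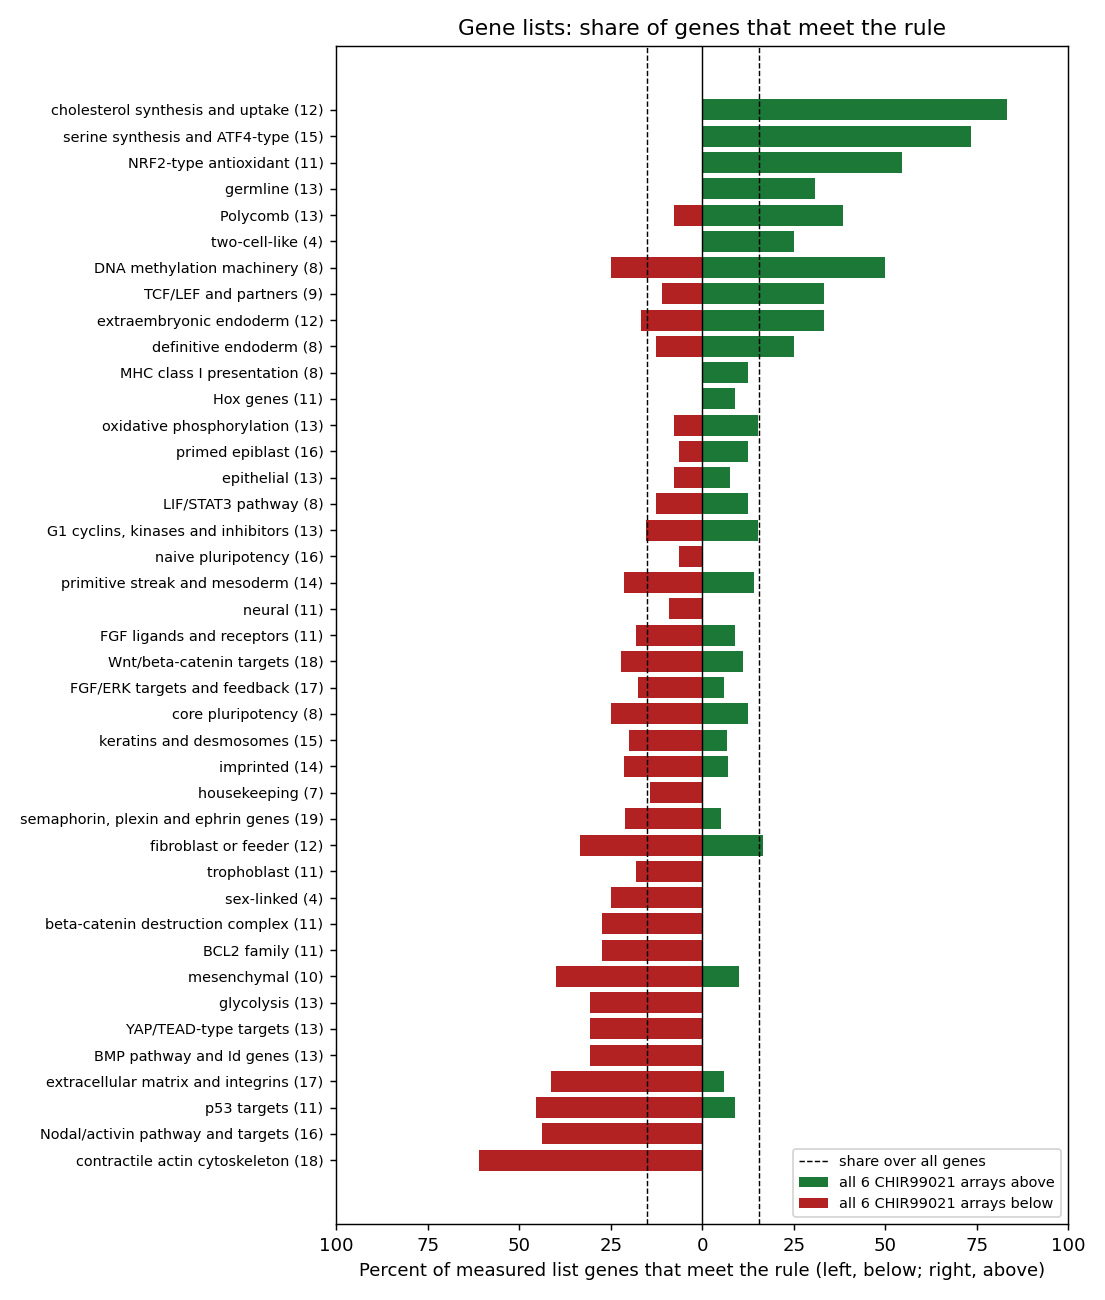
For each of the gene lists, with the number of measured genes in parentheses, bars give the percent of genes that meet the rule with the CHIR99021 cultures above (right) or below (left), and dashed lines the shares over all genes, 15.4% and 15.1%. The bars to the right are longest for cholesterol (10 of 12 genes), serine and ATF4-type (11 of 15) and NRF2-type genes (6 of 11), and those to the left for contractile actin genes (11 of 18).

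Of 287 microRNA genes measured, 42 (14.6%) met the rule above, near the 15.4% of all genes. Only 1, Mir301, met it below, against 15.1% of all genes. Most microRNA genes were dim: without the dimmest 40% of genes 98 were left, with 23 above and 0 below. The differences were small, and the counts depended on scaling: after quantile normalization 24 were above and 5 below, and 21 of the 42 were the same genes. The largest differences were those of Mir363 (0.78), Mir139 (0.62), Mir338 (0.60), Mir598 (0.60), Mir19a (0.55) and Mir181c (0.55). Mir363 was at 6.16, 5.75 and 5.76 in ESCs, 6.73, 6.78 and 6.68 in CHIR/XAV and 5.33, 5.74 and 5.52 in FGF2/activin, so its ESC values came within 0.01 log2 units of the highest FGF2/activin value. RefSeq gave mature sequences for 37 of the 43. Among these, 3 members share a seed (bases 2 to 8, in capitals), and they are shown because no other seed was shared by more members.
mmu-miR-363-3p: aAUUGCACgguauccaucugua
mmu-miR-25-3p: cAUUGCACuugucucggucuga
mmu-miR-92a-3p: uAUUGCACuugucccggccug

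Their genes Mir363, Mir25 and Mir92-2 were above by 0.78, 0.47 and 0.37. The probe sets read the gene and its precursor, and neither arm can be told from the other in these values.

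Along the chromosomes, members above made up 20.1% of the measured genes on chromosome 15 and members below 7.45%, against 15.4% and 15.1% of all genes. On the other autosomes and the X the shares ran from 12.8% to 19.03% above and from 11.4% to 19.4% below. Gene copy number was not measured here. Where a member had a second probe set, it had the same sign in 293 of 328 members and in 24 of the 29 at 2-fold or more, of which 12 were also 2-fold there; the 5 with opposite signs were Anxa6, Gm5486, Pld2, Steap2 and Tmod1.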

How the data were processed

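Total RNA of 9 samples was hybridised to single-colour Affymetrix arrays. The deposited values are log2 expression, which the authors made with RMA and Partek (per the submitters' processing notes, no version stated). Only the 21789 of 35399 probe sets with a single gene symbol were used (1621 had several, 11989 had no symbol), giving 19936 genes, 19919 of them matched to RefSeq GRCm38.p6. For 1001 genes with more than 1 probe set the one with the highest mean was kept. Values ran from 3.05 to 14.34. No detection calls were used, and dim values may be background.

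The fit used limma 3.58.1 (R 4.3.3; lmFit and eBayes) with 3 groups and equal weight to both CHIR99021 groups, and Benjamini-Hochberg adjustment over 19936 genes at 0.05; 12326 genes had an unadjusted p under 0.05. On simulated data with 19936 genes 50 genes were changed at each size: 94% were recovered at 0.5 log2 units and 100% at 1, at 2 and at -1, and 9 of 206 calls were false. The simulated arrays had independent noise, no array effects and no difference between ESCs and CHIR/XAV EpiSCs. They check the code, and their share of false calls does not carry over to these data.

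Named genes were the 12 largest differences above and the 12 below among members, without predicted and clone names, up to 4 genes per list by size of difference, a panel of 14 genes and up to 6 microRNA genes. Others were chosen after their values were seen. The rule, members and lists were chosen with earlier results of these data known. The number of arrays limits the precision. Alternatives were other scalings, filters on dim genes, limits and gaps of the rule, other forms of the fit, and each array left out.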

Additional observations from a re-analysis of the deposited data

How the results depend on the processing

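Counts in this paragraph are genes called higher and lower by limma, or members above and below, in that order. Leaving out the dimmest 40% of genes gave 3293 and 4901 calls and 1519 and 2757 members. Fewer genes were tested, and the genes left out held 50.5% of the members above but 8.47% of those below. Treating the 6 CHIR99021 arrays as 1 group gave 2182 and 2680 calls, since the distance between ESCs and CHIR/XAV EpiSCs then enters the spread. Requiring a gap of 0.5 log2 units left 187 and 570 members. Quantile normalization gave 5188 and 4398 calls and 2570 and 2603 members, of which 1790 and 2249 were members as deposited. With each array left out, calls ran from 4624 to 6254 and 4534 to 5148, and members from 3214 to 4528 and 3084 to 3453, the rule being easier to meet with fewer arrays. Of the 2-fold members, 124 of 132 above and 374 of 401 below met the rule in all settings but the filter on dim genes. The replicate numbers did not pair the arrays: deviations of same-numbered arrays correlated at -0.071 to 0.239, not every array best with its own number. With replicate number as a block, 6093 and 5139 genes were called. Over the named genes, 3000 alternative values kept their status as called or not called, 93 lost the call and 8 gained it. A value that turned direction while called in neither setting counts among the 3000. No value turned direction past the threshold.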
